A study of Mus musculus with 51 samples.

Results

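Apod and Apoe, the genes of the secreted lipid carriers apolipoprotein D and apolipoprotein E, were followed through spatial transcriptomic regions of the mouse cochlea. They are 2 of the 6248 genes listed in the deposited files, and both were measured in every region without a missing entry. They were picked by name after earlier results of these data: Apod because it was much lower in neuron than in supporting-cell regions after mock exposure, and Apoe because it had led the genes in an earlier test for unequal noise effects in neurons and supporting cells (it ranks 8th of 4686 by p here). Apoe was thus picked on values of all 4 groups, so its comparisons are given as descriptions without a test. The same holds for each comparison of Apod that leans on the mock contrast; tested were the contrast after noise, which shares no region with it, and the average noise effect, which is nearly uncorrelated with it by design (0.04).

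The animals were male CBA/CaJ mice of 16 weeks, 5 per treatment, that received broadband noise at 100 dB SPL for 2 h or a mock exposure without noise. The sample titles add 4 h to the exposure in both treatments, whereas the series' design text has the noise group sacrificed right after it, so the time of collection is not settled. Fresh-frozen sections of 6 µm were used for GeoMx profiling, in which oligonucleotide tags are released from chosen regions of a section and counted. The labels name neuron and supporting-cell regions and do not say how these were chosen; 51 regions were labelled, and 50 were used: 16 mock neuron, 12 noise neuron, 14 mock supporting-cell and 8 noise supporting-cell regions. Noise neuron replicate 6, whose values are all equal, was left out. Each group holds more regions than its 5 animals, and the labels do not tie regions to animals, so some regions come from the same animal and the p-values given below, which treat regions as separate, are too small.

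Apolipoprotein E carries cholesterol and phospholipids between cells and is taken up through receptors of the low-density lipoprotein receptor family. In nervous tissue it is made mainly by glia and macrophages. Apolipoprotein D is no relative of it by fold: it is a lipocalin, a small barrel-shaped binder of hydrophobic molecules, and is known as a product of Schwann cells and fibroblasts in peripheral nerve. Spiral ganglion neurons, whose cell bodies lie in the bony core of the cochlea, are wrapped by such glia.

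Apod lies on chromosome 16 (chr16:31296192-31314808, RefSeq GRCm38.p6) and Apoe on chromosome 7 (chr7:19696244-19701310). The 250 bases upstream of a start site of each gene are shown because both genes were higher in supporting-cell regions after mock exposure. Both are read 5′ to 3′ on the minus strand, at chr16:31314809-31315058 for Apod and at chr7:19699189-19699438 for the first of 3 Apoe starts searched. The Apod window abuts the listed gene span, whereas the Apoe window lies inside it, so that start is not at the upstream end of the Apoe span. Capitals mark the letters CTTTGT or their reverse complement, the core bound by Sox-family factors, a family that includes the Schwann cell regulator Sox10.

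Apod: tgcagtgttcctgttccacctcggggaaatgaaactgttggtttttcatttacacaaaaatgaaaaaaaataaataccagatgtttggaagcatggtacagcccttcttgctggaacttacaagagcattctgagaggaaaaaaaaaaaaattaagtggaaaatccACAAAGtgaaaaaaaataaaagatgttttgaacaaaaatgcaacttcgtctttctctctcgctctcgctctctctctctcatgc

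Apoe: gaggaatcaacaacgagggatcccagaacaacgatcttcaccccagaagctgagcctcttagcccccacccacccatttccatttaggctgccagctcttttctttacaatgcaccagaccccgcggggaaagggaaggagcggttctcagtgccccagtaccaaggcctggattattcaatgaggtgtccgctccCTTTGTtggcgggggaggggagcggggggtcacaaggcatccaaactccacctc

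The windows differed in composition, with 36.4% G and C for Apod and 57.2% for Apoe, against a median of 52.4% over 32851 windows of the same length. The Sox core matched once in each, its first base 84 bases upstream of the start in Apod and 54 in Apoe. Searched on both strands, 16.5% of all windows hold these letters, so a match in a window is common. The letters TATAAA (12.4% of windows), GGGCGG (32.7%), AGGTCA (14%) and TGANTCA (6.75%) were not found in either printed window. At the second Apoe start (chr7:19698622-19698871) the letters TATAAA matched on both strands in overlapping places, at 96 and 100 bases upstream. The tag counts do not tell the Apoe starts apart.

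Depth was low and differed between groups. Neuron regions held a median of 23494 reads after mock (10147 to 58022) and 26710 after noise (12128 to 88156). Supporting-cell regions held 12885 after mock (9607 to 22926) and 16882 after noise (11770 to 25605). These totals count each gene at the lowest value as 1 read, so they overstate depth where no read was seen. A median of 31.3% of genes sat at that value in mock and 19.2% in noise neuron regions. In supporting-cell regions the medians were 51.6% after mock and 35.4% after noise. In the authors' signal the upper quartile was 3.12 throughout, and 1 read was worth a median of 0.780, 0.650, 1.30 and 0.910 signal units in that order, and no value lies below 1 read. The negative probe, designed to match no transcript, averaged 1.09 ± 0.314 (SD, n = 16) after mock and 1.12 ± 0.235 (n = 12) after noise in neuron regions. In supporting-cell regions it averaged 1.54 ± 0.256 (n = 14) after mock and 1.42 ± 0.202 (n = 8) after noise. The labels fit the marker genes in part: 11 of 14 neuron genes tested were higher in mock neurons, against 13.8% of all genes, and 10 of 15 Schwann and satellite glia genes were lower there, against 6.19%. Of 7 fibroblast and bone genes tested, 4 were lower in mock neurons (Coch, Otos, Igfbp5 and Sparc) and 1, Spp1, was higher. Few marker genes of the supporting cells of the organ of Corti (3 of 14), of macrophages (3 of 19) or of hair cells (3 of 10) are among the genes analysed here, too few to check those kinds of cell. In mock neurons 1 of 2 organ of Corti genes tested was called lower and 1 of 2 hair cell genes higher. The 1 macrophage gene tested was not called. The captured areas of noise and mock carry separate name series, so a difference between slides cannot be told apart from one between treatments.

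Apod was the higher of the pair in every group. Its signal ran from 6.24 to 34.3 in mock supporting-cell regions, with a median of 10.1, and from 5.20 to 18.7 in noise supporting-cell regions, with a median of 9.67. In neurons it ran from 0.520 to 6.24 after mock (median 2.73) and from 0.520 to 3.64 after noise (median 1.98). All 22 supporting-cell regions lay above the negative probe of their own region, as did 13 of 16 mock and 10 of 12 noise neuron regions. The group means were 12.9 ± 7.76 (SD, n = 14) and 10.6 ± 4.29 (n = 8) in supporting cells after mock and noise, and 2.87 ± 1.48 (n = 16) and 2.04 ± 0.875 (n = 12) in neurons. The means thus stood in the order mock supporting, noise supporting, mock neuron, noise neuron. Treatments of 1 region type overlapped widely, and the region types did not overlap in mean ± SD. Levels of the genes are on the scale of the tag counts of different probes, so the order between Apod and Apoe is one of probe signal, not of transcript number.

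Apoe was close to the negative probe in 3 of the 4 groups. In mock supporting-cell regions its signal ran from 1.56 to 7.80 with a median of 4.68, and 13 of 14 regions lay above their negative probe. In noise supporting-cell regions it ran from 0.780 to 4.16 with a median of 1.40, and 4 of 8 regions lay above the probe. The neuron regions spanned 0.520 to 2.23 (median 1.04) after mock and 0.346 to 2.08 (median 0.910) after noise, with 4 of 16 and 4 of 12 above the probe. Most neuron regions held a single Apoe read, 12 of 16 after mock and 7 of 12 after noise, which is the lowest value a gene can have here. The means were 4.26 ± 1.59 (SD, n = 14), 1.78 ± 1.22 (n = 8), 1.12 ± 0.530 (n = 16) and 1.10 ± 0.608 (n = 12) for mock supporting, noise supporting, mock neuron and noise neuron regions. The first stood apart from the others by more than its SD. The means of the neuron groups lay within each other's SD, and that of noise supporting cells lay just above both, with overlapping SDs.

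**Figure D1:**
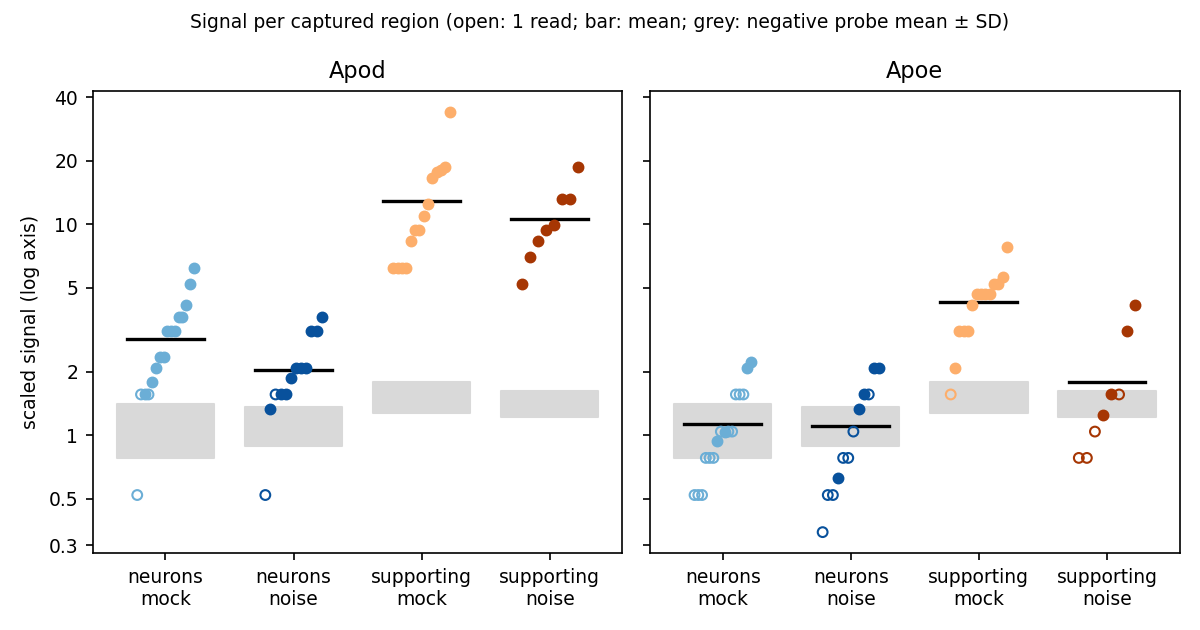
Scaled signal (log axis) of Apod and Apoe in each of the 50 captured regions by group; filled points have 2 or more reads, open points 1 read, black bars are group means and grey bands the mean ± SD of the negative probe. Apod is above the probe in all supporting-cell regions, whereas Apoe is clear of it mainly after mock, with a mean of 4.26 against 1.78 after noise.

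The same order appears in the reads summed over each group, which need no scaling by the upper quartile. Apod took 8.16 of 10000 supporting-cell reads after mock (95% exact Poisson interval 6.92 to 9.55, from 154 reads) and 6.72 after noise (5.42 to 8.23, from 93 reads). In neurons it took 1.61 (1.25 to 2.04) after mock and 1.15 (0.835 to 1.54) after noise. Apoe took 2.70 of 10000 supporting-cell reads after mock (2.01 to 3.55, from 51 reads) and 1.08 after noise (0.607 to 1.79, from 15 reads). In neurons its shares were 0.624 (0.407 to 0.914, from 26 reads) after mock and 0.549 (0.340 to 0.839, from 21 reads) after noise. A gene at the lowest value counts as 1 read in these sums and totals, whether or not a read was seen, so the shares are approximate. The intervals take the sums as plain counts and do not cover the spread between regions. Apoe thus rests on few reads in every group, and Apod on several times as many in supporting cells.

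The first comparison asks how neurons and supporting cells differ. After mock exposure, the contrast from which Apod was picked, 15 of 16 neuron regions lay below the lowest supporting-cell region for Apod, and 10 of 14 supporting-cell regions lay above the highest neuron region. Apod's mean signal was 4.49 times as high in supporting cells, and its difference in mean log2(signal + 1) was -1.77 (SE 0.20, neurons minus supporting cells). For Apoe the mean was at least 3.79-fold higher in supporting cells, since 12 of 16 neuron regions sat at 1 read and 4 of 16 lay above the negative probe; the fitted log2 difference was -1.28 (SE 0.18) and is no bound. By limma with Benjamini-Hochberg adjustment, 20% of the 4686 genes tested passed an adjusted p of 0.05 in this contrast, 6.19% as lower in neurons. This split turned with the scaling, from 649 higher and 290 lower to 518 and 548 with reads per total, 1073 and 76 with the negative probe subtracted, and 372 and 40 with the mean of the olfactory receptor genes as a covariate.

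After noise, Apod was again lower in neurons, in regions that its choice had not used. All 12 noise neuron regions lay below all 8 noise supporting-cell regions, and the mean was 5.21 times as high in supporting cells. The log2 difference was -1.90 (SE 0.25), with a limma adjusted p of 2.68e-11 across all genes tested, where 8.28% of genes were called, 1.34% as lower and 6.94% as higher in neurons. The 325 higher and 63 lower became 231 and 115 with reads per total, 397 and 21 with the negative probe subtracted, and 230 and 109 with quantile normalization. A two-sided exact permutation test over the 20 regions gave p = 1.59e-05, the smallest that 125970 splits can give; regions share animals, so both p-values are too small. Apoe had a log2 difference of -0.36 (SE 0.22) in the same regions, which moved to -0.21 without noise supporting replicate 5, and its groups overlapped, with 2 of 8 supporting-cell regions above the highest neuron region.

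Averaged over the treatments, Apoe's log2 difference between neurons and supporting cells was -0.82 (SE 0.14). For Apod the average was -1.84. In this contrast 23.3% of genes were called, 6.08% as lower in neurons, a split of 805 higher and 285 lower that became 603 and 745 with reads per total, 1204 and 88 with the negative probe subtracted, and 392 and 445 by DESeq2. Apoe's average joins unequal values within each treatment, given above.

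Neurons and supporting cells were captured from the same areas in 21 cases, 14 mock and 7 noise. For Apod the supporting-cell region was the higher one in all 21 areas. The mean paired log2 difference was -1.83 ± 0.625 (SD, n = 7) in the noise areas, where a two-sided exact sign-flip permutation test gave p = 0.0156, the smallest that 7 areas allow. Areas may share animals, so this p is too small. In the mock areas, which hold the values that chose Apod, it was -1.70 ± 0.825 (n = 14), between -3.10 and -0.49.

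For Apoe the paired areas split by treatment. The supporting-cell region was the higher one in 13 of 14 mock areas, with a mean paired log2 difference of -1.29 ± 0.617 (SD, n = 14). In the noise areas it was the higher one in 4 of 7, equal in 1 and the lower one in 2, with a mean of -0.42 ± 0.951 (n = 7). That mean rests on few areas and ran from -0.62 to -0.19 when 1 area was left out; the areas at -1.76 and -1.61 are the largest. Over all 21 areas the mean was -0.999 ± 0.835, and the supporting-cell region was higher in 17. Most of that mean comes from the mock areas, which are 14 of the 21.

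**Figure D2:**
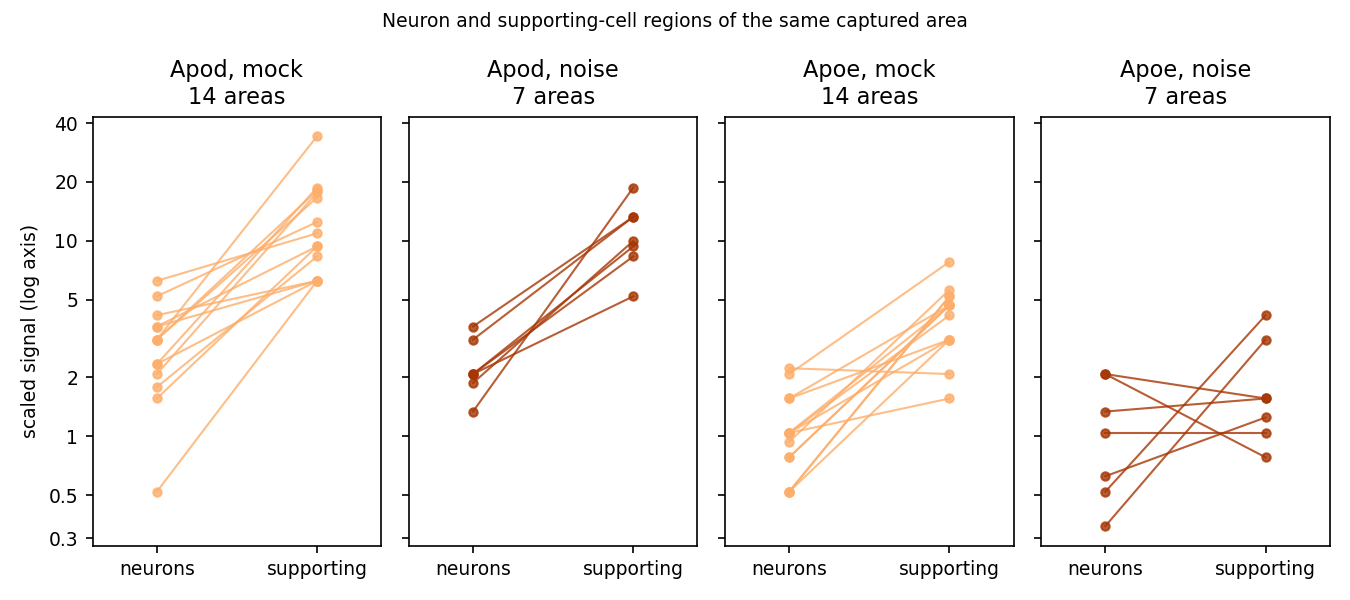
Scaled signal (log axis) of Apod and Apoe in the neuron and supporting-cell region of each captured area, 1 line per area. Every Apod line rises toward the supporting-cell region, and Apoe lines rise in 13 of 14 mock areas and in 4 of 7 noise areas.

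The second comparison asks what noise changed within a region type. In supporting cells Apoe was below its mock level in most noise regions: 8 of 14 mock regions lay above the highest noise region, 4 of 8 noise regions lay below the lowest mock region, and 13 of 14 mock regions lay above the noise mean. The lowest mock value, 1.56, was 1 read. In the shallowest mock regions 1 read was worth 1.56, so those regions could not lie lower, whereas deeper noise regions could. The 8 noise regions were at 1.56, 1.56, 3.12, 0.780, 4.16, 1.25, 1.04 and 0.780 for replicates 1 to 8. Replicates 3 and 5 are the high ones and reach into the mock range of 1.56 to 7.80. The mean signal was at least 2.39-fold higher after mock, since 4 of 8 noise regions sat at 1 read, and the log2 difference, noise minus mock, was -0.96 (SE 0.22), where 0.384% of all genes were called, 0.32% as lower and 0.064% as higher. These 3 higher and 15 lower genes became 26 and 28 with quantile normalization, 8 and 15 with reads per total and 6 and 6 with the negative probe subtracted. Without the regions whose upper quartile gene had only 2 reads, 7 of 14 mock and 1 of 8 noise supporting-cell regions, the means were 4.07 ± 1.34 (SD, n = 7) and 1.81 ± 1.31 (n = 7). Noise supporting replicate 8, for which the table lists a read file of another well, is one of the lowest regions for Apoe.

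In neurons Apoe showed no such gap, at means of 1.12 after mock and 1.10 after noise and a log2 difference of -0.03 (SE 0.19). With 12 of 16 and 7 of 12 regions at 1 read, a fall in neurons could not have been seen at this depth. The difference between the noise effects, neurons minus supporting cells, was 0.93 (SE 0.28), the value for which Apoe was picked. In that contrast limma called 0 of 4686 genes (0%), with 287 at an unadjusted p below 0.05, and edgeR and DESeq2 on the recovered reads also called 0.

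Averaged over region types, Apoe's log2 difference, noise minus mock, was -0.49 (SE 0.15). It joins the supporting-cell difference with a neuron difference near 0, and it ran from -0.57 to -0.45 when 1 region was left out. In this contrast 1.49% of genes were called, 1.07% as lower and 0.427% as higher; the 20 higher and 50 lower became 57 and 45 with reads per total and 58 and 35 with quantile normalization.

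Apod did not pass the test for noise averaged over region types, at -0.24 (SE 0.17, limma adjusted p 0.477 over regions that share animals). In supporting cells the 8 noise regions were at 13.3, 18.7, 5.20, 7.02, 8.32, 9.98, 9.36 and 13.3 for replicates 1 to 8, against a mock range of 6.24 to 34.3. Replicate 3 alone lay below that range. The log2 difference was -0.17 (SE 0.25, 95% interval -0.66 to 0.31), and it was -0.30 without replicate 2 and -0.05 without replicate 3. In neurons it was -0.31 (SE 0.21, interval -0.73 to 0.11), where 0.662% of genes were called, 10 higher and 21 lower, or 13 and 17 with reads per total and 3 and 3 with quantile normalization; 3 of 16 mock regions lay above the highest noise region. The difference of these effects was -0.13 (SE 0.32, interval -0.77 to 0.50). The values within a region type reuse the mock regions on which Apod was picked and are descriptions. The intervals leave room for a modest fall of Apod after noise and for a smaller rise.

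Genes with symbols from A to K, among them both apolipoproteins, had medians below those of the other symbols in the noise contrasts. Their median log2 difference was -0.19 in neurons and -0.17 in supporting cells over 988 genes, against 0.08 and 0.01 over the other 3698 genes. Apod's -0.17 in supporting cells is thus at the median of its stretch of the alphabet, and Apoe's -0.96 below it. In neurons against supporting cells the A to K symbols instead had the higher median, 0.30 after mock and 0.30 after noise. The other symbols had -0.11 and -0.01. The part of these shifts in the results was not tested.

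**Figure D3:**
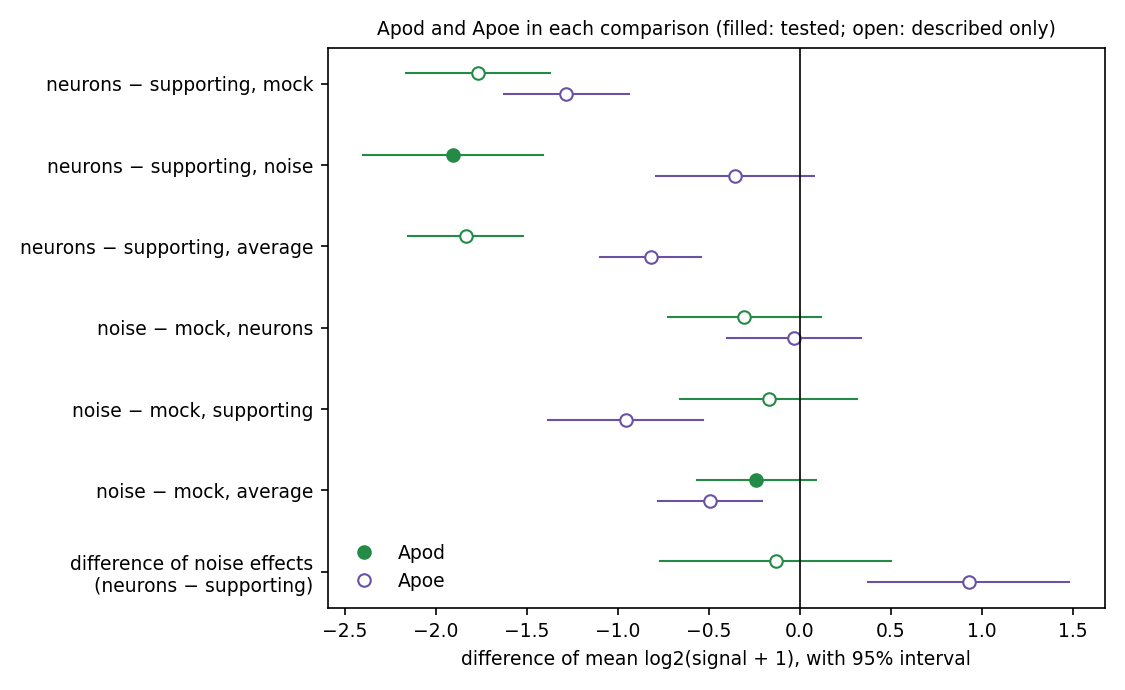
Difference of mean log2(signal + 1) of Apod and Apoe with its 95% interval in 7 comparisons; filled points were tested and open points are descriptions, because the genes were picked from those contrasts. Apod lies between -1.90 and -1.77 in the neuron against supporting-cell contrasts, and its intervals span 0 in the noise contrasts, whereas Apoe is at -0.96 for noise in supporting cells and at -0.03 in neurons.

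Among the 5 genes whose pattern was most like that of Apod over the 50 regions were Igfbp4 (Pearson r 0.75), Itgb8 (0.73) and B2m (0.71), out of 4646 genes compared. For Apoe they included Lrp1 (0.66), Sparc (0.65) and Pmp22 (0.64). Pmp22 encodes a myelin membrane protein, B2m the light chain of class I histocompatibility molecules, and Sparc a secreted matrix glycoprotein. The points share libraries and fall into 4 groups, so such values follow the group means. With each group's mean removed the most like genes were others, Sdhb (0.59), Pax6 (0.53), Rnf17 (0.51), Dnajb2 (0.50) and Morc4 (0.49) for Apod and Ptpn14 (0.53), Olfr1137 (0.49), Olfr1283 (0.48), Rnf144b (0.45) and Olfr467 (0.44) for Apoe. Pmp22 was then at -0.02 with Apoe, and B2m at 0.30 with Apod.

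Apod and Apoe themselves were correlated at r = 0.60 over all 50 regions and at -0.00 with the group means removed. Apoe ranked 18th among the genes most like Apod, and Apod 15th among those most like Apoe. Within the neuron groups r was 0.14 after mock and 0.40 after noise, and within the supporting-cell groups -0.11 and -0.36, each over few regions and few reads.

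Some glia genes were lower after noise in supporting cells, as was Apoe. The summed signal of 18 Schwann and satellite glia genes had a median of 170.0 in mock supporting cells (133 to 220) and 88.1 in noise supporting cells (59.3 to 107.9), so the groups did not overlap. In neurons it was 71.7 (52.0 to 87.3) after mock and 51.1 (32.2 to 64.6) after noise. Of 15 such genes tested, 4 fell with noise in supporting cells, among them Pmp22, Mbp and Aatk, and 1 in neurons, against 0.384% and 0.662% of all genes. The glia genes at 1 read in most supporting-cell regions were Egr2, Ngfr and Gldn after mock and L1cam after noise. In bulk regions fewer cells of a type and less RNA per cell cannot be told apart, and the part of the glia genes in the Apoe values was not tested. With group means removed the glia list's mean had r = 0.12 with Apoe and 0.18 with Apod over the 50 regions. On the same basis Apoe had r = -0.28 with log2 total reads and 0.28 with the log2 negative probe. Apod had 0.01 and 0.11.

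Pmp22, a membrane protein of peripheral myelin and one of the genes most like Apoe, was at 15.6 ± 4.82 (SD, n = 14) after mock and 6.78 ± 2.53 (n = 8) after noise in supporting cells, a log2 difference of -1.09 (SE 0.25). It was named after its values were seen, so this is a description. The values of Apoe and Apod for the same contrast were -0.96 and -0.17. Whether either gene differed from the glia genes was not tested.

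Of the fibroblast and bone genes listed, 9 of 21 were in the files. Coch, a secreted matrix protein made by cochlear fibrocytes, was at 1.87 ± 1.08 (SD, n = 16) in mock neurons and at 9.96 ± 7.55 (n = 14) in mock supporting cells. After noise it was at 1.13 ± 0.384 (n = 12) and 4.30 ± 3.39 (n = 8). Its log2 difference with noise in supporting cells was -0.95 (SE 0.24, limma adjusted p 0.0325, over regions that share animals). This was the 1 call among 7 genes tested, against 0.32% of all genes called lower. Otos, another fibrocyte product, was at 6.68 ± 3.32 and 3.27 ± 1.92 in supporting cells after mock and noise. Sparc (3.46 and 2.12) and Igfbp5 (3.47 and 2.36) also had lower means there after noise. Spp1 (9.68 and 10.7) and Pi16 (2.19 and 2.99) had higher ones, and Pdgfra was at 2.33 and 2.29. The list's mean had r = 0.63 with Apod and 0.62 with Apoe over the 50 regions, and -0.02 and 0.05 with group means removed. Its summed signal had medians of 44.4 (31.2 to 55.1) and 38.7 (28.1 to 61.3) in mock neurons and supporting cells, and 33.6 (22.9 to 39.1) and 31.7 (21.8 to 42.9) after noise. That sum leans on Spp1, which alone averaged 30.0 in mock neurons and 9.68 in mock supporting cells. The list's mean log2(signal + 1) ran the other way, at 1.74 in mock neurons and 2.17 in mock supporting cells. After noise it was at 1.57 and 1.92. Mgp was at 1 read in most regions of 3 groups. The list's part in the values of Apod and Apoe was not tested.

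**Figure D4:**
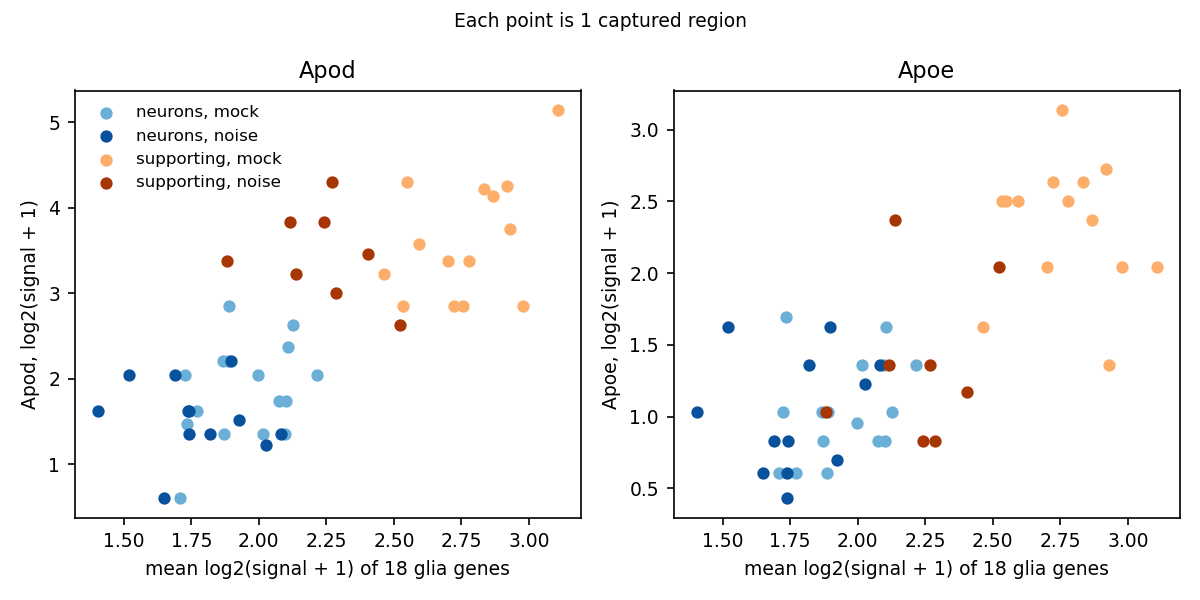
Apod and Apoe, each as log2(signal + 1), against the mean log2(signal + 1) of 18 Schwann and satellite glia genes, 1 point per captured region, coloured by group. Noise supporting-cell regions sit left of the mock ones on the glia axis. Their Apod values mostly lie in the mock range, whereas 4 of 8 Apoe values lie below every mock value, as 1 of 8 Apod values does. The lowest mock Apoe value is 1 read in a shallow region, which could not lie lower.

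Of 24 apolipoproteins listed, only Apod, Apoe and Clu are among the genes analysed here. Clu, the secreted chaperone clusterin or apolipoprotein J, had neuron means of 3.55 ± 1.50 (SD, n = 16) after mock and 2.30 ± 1.41 (n = 12) after noise. In supporting cells it was at 2.61 ± 1.62 (n = 14) after mock and 1.77 ± 0.870 (n = 8) after noise. Its log2 difference between neurons and supporting cells after mock was 0.38 (SE 0.19, limma adjusted p 0.146), on the other side of 0 from Apod and Apoe. Its average noise difference was -0.41 (SE 0.16, adjusted p 0.138), and it passed the test in none of the 7 comparisons.

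Receptors that take up these particles were measured in part, 8 of 24 after filtering. After mock exposure Lrp1, Lrp4 and Lrp6 were lower in neurons, 3 of 8 against 6.19% of all genes. Their neuron values lie near the floor: Lrp1 was at 1 read in 10 of 16 mock neuron regions, Lrp4 in 9 and Lrp6 in 6. Lrp1, the large endocytic receptor for apolipoprotein E, had mock means of 1.41 ± 0.761 (SD, n = 16) for neurons and 3.59 ± 1.40 (n = 14) for supporting cells, a log2 difference of -0.93 (SE 0.18, limma adjusted p 5.46e-06). After noise Lrp1 was at 1.39 ± 0.693 (n = 12) and 2.14 ± 1.21 (n = 8), and its difference of -0.34 (SE 0.23, adjusted p 0.421) did not pass. Lrp4, an organiser of the nerve-muscle synapse, had -0.81 (SE 0.18, adjusted p 9.03e-05) after mock, and the Wnt co-receptor Lrp6 had -0.67 (SE 0.18, adjusted p 0.00268). No receptor passed with noise within a region type, where Lrp1 had -0.58 (SE 0.22, adjusted p 0.281) in supporting cells. The median over the list was -0.26 after mock against -0.05 over all genes, and -0.28 against -0.03 for noise in supporting cells.

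Bsg is an immunoglobulin-family membrane protein that has been reported to bind apolipoprotein D. It was the 1 receptor of 8 tested that was called for noise, averaged over region types, against 1.07% of all genes called lower there. Its neuron means were 6.11 ± 2.92 (SD, n = 16) after mock and 3.94 ± 1.59 (n = 12) after noise, and the supporting-cell means 5.88 ± 2.26 (n = 14) and 2.74 ± 0.741 (n = 8). Averaged over region types it fell by 0.66 on the log2 scale (SE 0.17, limma adjusted p 0.0161). Within each type it did not pass, at -0.47 (SE 0.21, adjusted p 0.305) in neurons and -0.84 (SE 0.25, adjusted p 0.112) in supporting cells. Apod itself did not pass in the same comparison (-0.24). P-values are over regions that share animals.

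Cholesterol synthesis genes were lower in neurons after mock, 5 of 10 tested against 6.19% of all genes. Hmgcs1, an early enzyme of the pathway, had mock means of 1.29 ± 0.674 (SD, n = 16) for neurons and 3.65 ± 2.38 (n = 14) for supporting cells, a log2 difference of -0.92 (SE 0.18, limma adjusted p 7.82e-06). Fdft1, the squalene synthase, had -0.58 (adjusted p 0.00709). Srebf2, the transcription factor that controls the pathway, had -0.56 (adjusted p 0.0112). None passed after noise, where Hmgcs1 had -0.27 (SE 0.23, adjusted p 0.552), and none passed in a noise contrast. The list's median was -0.34 after mock against -0.05 over all genes. These genes lie near the floor: Hmgcs1 was at 1 read in 10 of 16 mock neuron regions, Srebf2 in 8 and Fdft1 in 7. The mean log2(signal + 1) of the olfactory receptor genes was also lower there, 1.41 against 1.65 in mock supporting cells. The part of background in the list's values was not tested. Regions share animals, so these p-values are too small.

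Few efflux genes and other small lipid carriers were called, in either direction, and the efflux share called higher after mock was near that of all genes. Of 8 efflux genes tested, the transporter Abca5 was higher in mock neurons by 0.61 on the log2 scale (SE 0.18, limma adjusted p 0.00752), and the nuclear receptor Rxra was lower, with a log2 difference of -0.55 (SE 0.19, adjusted p 0.022), 1 of 8 each way against 13.8% higher and 6.19% lower of all genes. Averaged over treatments Abca5, Abcg4 and Nr1h2 were higher in neurons, at 0.46, 0.42 and 0.48 (adjusted p 0.0131, 0.0183 and 0.0124), 3 of 8 against 17.2% of all genes. Of 3 lipocalins and small carriers, Fabp3, a fatty acid binder, was higher in mock neurons by 0.73 (SE 0.19, adjusted p 0.00159), 1 of 3 against 13.8% of all genes. Ptgds, a lipocalin like Apod and a synthase of prostaglandin D2, was lower in neurons averaged over treatments, with -0.40 (SE 0.15, adjusted p 0.0358), 1 of 3 against 6.08% of all genes. Neither list held a gene called with noise. P-values are over regions that share animals.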

How the data were processed

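GeoMx regions of mouse cochlea were grouped by their titles into neurons or supporting cells after noise or mock. The deposited values are a signal per gene and region; the submitters' processing notes name DRAGEN and the builds mm10 and GRCm38, and how the authors scaled and filtered the signal is not given in the sources used here. From the values, the upper quartile is equal in all regions and 99.99% of values are whole multiples of 1 read within 0.01 reads, with a floor of 1 read; 66 entries hold no number, none of them for Apod or Apoe.

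The members and gene lists were chosen with earlier results of these data known. In the limma fit (version 3.58.1, R 4.3.3), log2(signal + 1) was fitted as 4 group means over 50 regions, with the captured area as a random block (correlation 0.0389). Genes below the 0.25 quantile of mean signal were dropped, which left 4686, and p-values were adjusted by Benjamini-Hochberg at 0.05. The log scale with a pseudocount of 1 understates the change of low genes. The code was tested on simulated data. Named were both members, each gene of the lipid lists called in any comparison or the largest otherwise, and the 5 genes most alike by correlation; glia genes with values were named beside Apoe after they were seen. Some genes that the rule names are not reported here. Planned tests of comparisons that share values with a gene's choice were left out, all those of Apoe among them, and given as descriptions. Alternatives included edgeR 4.0.16 and DESeq2 1.42.0 on the recovered reads; reads per total and leaving out shallow regions were chosen after seeing the data. Replicate numbers and areas were checked for pairing, with median correlations of deviations of -0.00 and 0.01 for same-numbered regions after noise and mock. For regions of the same area they were 0.02 and 0.03.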

Additional observations from a re-analysis of the deposited data

Results flagged for a closer look

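Among 6 quantities checked in the 8 noise supporting-cell regions, the negative probe was the single one with a stray region. Replicate 2 had 1.89 there, set apart by a gap that takes up 0.688 of the group's range, past Dixon's 95% critical value. Chance alone flags about 1 in 20 groups. Apod in that region was at 18.7, the highest of its group, and Apoe at 1.56.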

How the results depend on the processing

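The region-type differences of Apod and Apoe kept their direction in all 15 alternatives, and Apod after noise, the one tested, its call (adjusted p 1.44e-17 to 1.65e-08). Apod's average noise effect stayed uncalled in all 15 (0.201 to 0.768). Their size followed the scale. A pseudocount of 10 gave -0.78 for Apod after mock, -0.76 averaged over treatments, and -0.76 in the paired mock areas and in all areas; for Apoe it gave -0.35 after mock and in the paired mock areas, -0.27 for noise in supporting cells and 0.27 for the difference of effects. DESeq2 gave -2.35 and -2.49 for Apod after mock and averaged, and -2.13 and -1.04 for Apoe after mock and after noise, where edgeR gave -1.92 and -0.82. For Apoe averaged over treatments they gave -1.58 and -1.37, and a pseudocount of 10 gave -0.22. Apoe's average noise difference of -0.49 ran from -0.79 with edgeR to -0.14 with a pseudocount of 10 and was -0.49 with the replicate block. Leaving out 1 region moved no value of either gene by more than its residual SD. The cause of these changes was not tested.

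Counts of genes called moved by over 1.5 times in these cases. After mock, where the main count was 939, DESeq2 gave 518 and the olfactory receptor mean 412. After noise it was 388 and DESeq2 gave 218. Averaged over treatments it was 1090 and the olfactory receptor mean gave 554. For the average noise effect (70), robust variances gave 107, edgeR 45, the negative probe subtracted 36, the olfactory receptor mean 16, a pseudocount of 10 41, and no noise supporting replicate 8 37. For noise in neurons (31), DESeq2 gave 133, edgeR 161, the negative probe subtracted 7, the olfactory receptor mean 3, a pseudocount of 10 47, quantile normalization 6 and the replicate block 19. For noise in supporting cells (18), DESeq2 gave 11, edgeR 7, no filter 11, quantile normalization 54 and no noise supporting replicate 8 8. For the difference of effects (0), a pseudocount of 10 and quantile normalization gave 1 each. Leaving out 1 region gave 37 to 93 for the average noise effect, 11 to 35 in neurons and 3 to 21 in supporting cells. Same-numbered regions did not deviate together, but regions of the same area hardly did either, with median correlations of 0.02 after noise and 0.03 after mock. The check therefore cannot tell whether the numbers pair regions.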
